A study of Mus musculus with 30 samples.

Results

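The genes described here are 8 transcription factors that act in osteoclasts, the bone-resorbing cells that form from macrophage precursors: Nfatc1, Jdp2, Mitf, Tfe3, Tfeb, Tfec, Spi1 and Prdm1. They were chosen by name from 45706 genes in the deposited tables, and all 8 were among the 12614 genes that passed a filter on low values and were tested. RNA-seq was done on C57BL/6J bone marrow-derived macrophages that were turned into osteoclasts on bone slices with M-CSF at 25 ng/ml and RANKL at 100 ng/ml. There were 30 libraries in 10 groups of 3, and all of them had received both cytokines. Large-cell libraries, taken once big multinucleated cells were present, came from Terc-/- mice, which lack the telomerase RNA gene, aged 6 or 1 months, and from wild-type mice aged 1, 6 or 20 months. Libraries taken after 2 days came from wild-type mice aged 20 or 6 months. A further 3 large-cell groups carry an extra word in their titles: 519 for 6-month and 1-month Terc-/- cells, and gaiwei for 1-month wild-type cells. The labels do not say what these words mean. Those groups are called marked below and the other large-cell groups unmarked. The labels do not say whether the 3 libraries of a group came from separate mice or cultures, so the spread between them may be technical. Each p-value of the main fit rests on that spread as estimated over all 10 groups together, not from the compared groups alone.

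As background, RANKL binding to its receptor on macrophage precursors induces NFATc1, the factor that drives most osteoclast genes, through NF-kB and AP-1 proteins. PU.1, the product of Spi1, is needed earlier, for the macrophage lineage itself, and binds osteoclast gene promoters together with NFATc1 and MITF. MITF, TFE3, TFEB and TFEC form the MiT family of basic helix-loop-helix leucine zipper proteins, which bind E-box and M-box sequences as dimers. MITF and TFE3 act redundantly in osteoclasts, TFEB and TFE3 switch on lysosome and autophagy genes, and TFEC is found mainly in macrophages. JDP2 is a basic leucine zipper protein that dimerises with AP-1 factors and is required for osteoclast formation in mice. Blimp-1, the product of Prdm1, is a repressor that shuts down Irf8 and Bcl6, genes that hold back osteoclast formation.

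Promoter windows from RefSeq (GRCm38.p6, 300 bases around a transcript start) were found for Jdp2, Mitf, Tfe3, Tfeb, Tfec and Prdm1. The windows shown are those of the genes on which the results below turn: Jdp2, Prdm1 and Mitf, which fell in every marked group and rose with differentiation, and Tfec, which moved apart from them. Where a gene has several windows the most upstream one is given, and sequences run 5′ to 3′ on the strand of the gene. Capitals mark matches on either strand to an NFAT core (GGAAA), an AP-1 site (TGANTCA), an E-box (CACGTG), an M-box core (CATGTG), a PU.1 core (GAGGAA) or a cAMP response element (TGACGTCA). The NFAT and PU.1 cores can share letters, so 1 stretch may match both.
Jdp2, chr12:85598855-85599154, plus strand: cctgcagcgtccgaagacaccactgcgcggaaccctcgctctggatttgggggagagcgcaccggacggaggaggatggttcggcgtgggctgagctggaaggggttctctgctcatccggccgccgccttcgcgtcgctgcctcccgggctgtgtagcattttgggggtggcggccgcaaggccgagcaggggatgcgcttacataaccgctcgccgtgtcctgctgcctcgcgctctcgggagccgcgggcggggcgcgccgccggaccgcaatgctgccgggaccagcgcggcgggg
Mitf, chr6:97806808-97807107, plus strand: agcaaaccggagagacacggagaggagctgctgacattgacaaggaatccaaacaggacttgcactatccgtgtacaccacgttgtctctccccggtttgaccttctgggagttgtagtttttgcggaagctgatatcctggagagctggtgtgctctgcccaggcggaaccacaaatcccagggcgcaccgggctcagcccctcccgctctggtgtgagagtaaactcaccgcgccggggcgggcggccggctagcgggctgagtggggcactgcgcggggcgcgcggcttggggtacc
Prdm1, chr10:44458699-44458998, minus strand: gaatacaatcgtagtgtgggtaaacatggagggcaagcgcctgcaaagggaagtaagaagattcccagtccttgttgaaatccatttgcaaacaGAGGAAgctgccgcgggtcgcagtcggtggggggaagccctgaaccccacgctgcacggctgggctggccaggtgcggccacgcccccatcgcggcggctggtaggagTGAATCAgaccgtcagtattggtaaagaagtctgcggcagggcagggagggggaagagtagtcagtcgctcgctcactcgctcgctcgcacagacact
Tfec, chr6:16898392-16898691, minus strand: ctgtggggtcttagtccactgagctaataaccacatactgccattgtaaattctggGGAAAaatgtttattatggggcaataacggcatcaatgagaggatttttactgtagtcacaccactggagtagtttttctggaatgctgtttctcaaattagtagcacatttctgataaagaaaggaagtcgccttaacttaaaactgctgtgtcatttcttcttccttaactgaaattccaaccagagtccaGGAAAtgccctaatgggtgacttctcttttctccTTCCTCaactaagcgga
The Prdm1 window held 1 AP-1 site, a sequence present in 7.81% of all 32851 promoter windows of the same length, and 1 PU.1 core, present in 28.3%. The Tfec window held 2 NFAT cores, which 61.3% of windows contain, and 1 PU.1 core. The Jdp2 and Mitf windows shown held none of these letters. A downstream Jdp2 window, chr12:85599166-85599465, held 1 PU.1 core, and another, chr12:85599768-85600067, held 1 NFAT core. A downstream Mitf window, chr6:97991533-97991832, held 1 cAMP response element, present in 1.79% of windows, and 1 NFAT core. Another Mitf window, chr6:97929567-97929866, held 1 NFAT core. The AP-1 site was not particular to Prdm1, as a Tfe3 window, chrX:7763693-7763992, held 1 AP-1 site and 2 NFAT cores. No window of the 6 genes held an E-box, present in 7.15% of all windows, or an M-box core, present in 14.2%. A match describes the letters and does not show that a factor binds there.

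The deposited values were TPM, transcript levels relative to gene length and library total, which allow levels of different genes to be compared. Read depth was not known, since only TPM were held. Libraries listed 11270 to 12937 genes at 1 TPM or more. In the 6-month wild-type large cells, replicate 2 correlated at 0.910 on average with the other libraries of its group, a figure that was 0.934 to 0.990 for the other 29 libraries. Its value was the lowest of its group for every one of the 8 genes except Tfeb, for which it was the highest. Terc was listed at 0 in every Terc-/- library and in most wild-type ones and reached at most 1.13 TPM, so it could not check the genotype. The female-specific RNA Xist read 46.6 to 84.1 TPM in unmarked 1-month wild-type cells (3 libraries) and 0.254 TPM or less in all others. The Y-linked gene Eif2s3y was listed at 0 in those 3 libraries and read 12.1 to 82.0 TPM in all others. The labels do not give the sex of the mice, so it is not known whether the animals behind them were female or the libraries carry the wrong label. Comparisons that use those 3 libraries therefore also set libraries with Xist against libraries without it, and the 2 differences cannot be told apart there. The large-cell label was checked against Acp5, the acid phosphatase used to stain osteoclasts. Marked libraries had 69.96 to 147 TPM of Acp5, unmarked large-cell libraries 1860 to 12058 TPM and 2-day libraries 16.9 to 186 TPM. By that marker the marked libraries did not reach the unmarked large-cell level. In all these bulk libraries, fewer cells of a type and less RNA per cell cannot be told apart.

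Spi1 was the most abundant of the 8 genes in 29 of the 30 libraries, at 101 to 445 TPM, and Jdp2 took that place in the remaining library. Jdp2 spanned 28.6 to 330 TPM, Nfatc1 6.80 to 87.1 TPM, Tfe3 26.9 to 89.2 TPM and Tfec 12.6 to 35.7 TPM. Mitf, at 4.16 to 26.6 TPM, Tfeb, at 4.30 to 26.9 TPM, and Prdm1, at 1.85 to 24.7 TPM, were the least abundant. The highest group mean of Nfatc1, Jdp2 and Prdm1 was that of 20-month wild-type large cells. Mitf was highest in unmarked 6-month Terc-/- cells, Spi1 and Tfeb in unmarked 1-month Terc-/- cells, and Tfe3 and Tfec in 519-marked 6-month Terc-/- cells. For Nfatc1 the 20-month large-cell range, 66.8 to 87.1 TPM, did not overlap the group ranked next, unmarked 6-month Terc-/- at 33.6 to 62.4 TPM, whereas for Jdp2 and Mitf the top 5 groups by mean each overlapped their neighbour. In GRCm38, by GENCODE M21, Jdp2 lies at chr12:85599027-85639878, Prdm1 at chr10:44437177-44528501, Spi1 at chr2:91082390-91115756 and Nfatc1 on chromosome 18. Of the MiT genes, Mitf lies at chr6:97807052-98021349, Tfec at chr6:16833373-16898441, Tfe3 at chrX:7762560-7775202 and Tfeb at chr17:47737030-47792419. No 50-base stretch of 7 of the genes occurred in another annotated gene, and 5.54% of those of Jdp2 were shared with Gm47863, a divergent noncoding RNA that overlaps it. Nfatc1 overlaps an antisense gene and Mitf a pseudogene on the opposite strand. Whether the counting used strand is not stated, so reads of such partners cannot be told apart.

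**Figure D1:**
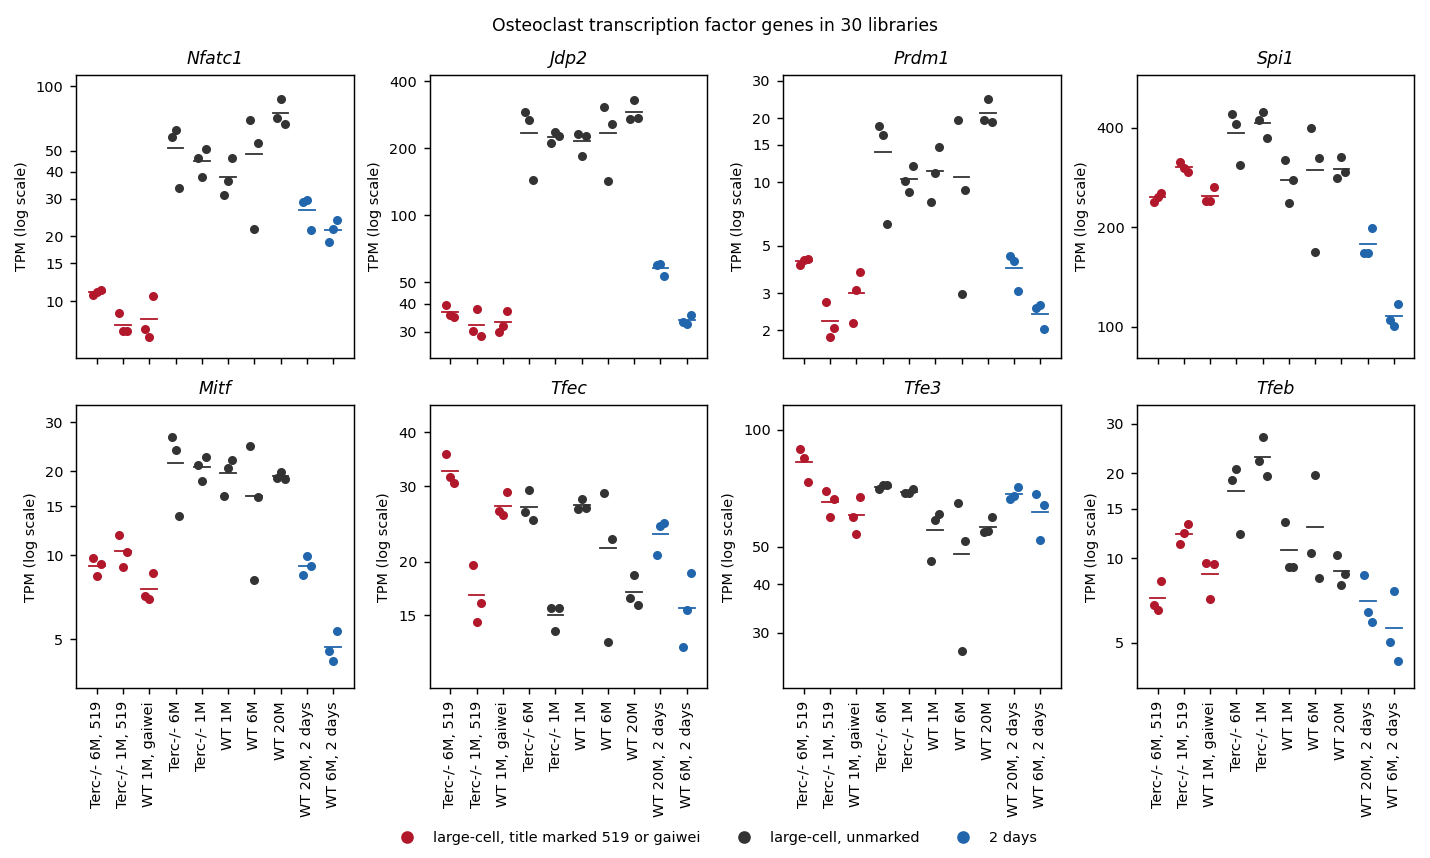
Deposited TPM (log scale) of the 8 genes in the 30 libraries, one point per library and a line at each group mean (n = 3 per group); red points are marked large-cell groups, grey points unmarked large-cell groups and blue points 2-day groups. Nfatc1 lies at 6.80 to 11.3 TPM in marked, 21.7 to 87.1 TPM in unmarked large-cell and 18.8 to 29.7 TPM in 2-day libraries, while the Tfe3 groups share much of one range.

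The comparison of wild-type large cells with cells after 2 days shows which of these genes rose as osteoclasts formed. Values are log2 changes ± standard error from limma on log2(scaled TPM + 1), 3 libraries per group, with p-values adjusted by the Benjamini-Hochberg method over all 12614 genes and called at 0.05. At 20 months 5 of the 8 genes were called, all of them higher, against 36.2% of all genes called in either direction and 18.7% called higher. At 6 months 7 of the 8 were called, again all higher, against 49.8% in either direction and 24.6% higher. These genes had been chosen for known roles in osteoclasts and with earlier results of these data known. Markers of other cells moved as well. Stromal and osteoblast markers summed to 6062 to 7615 TPM in 20-month large cells, against 3190 to 4082 TPM after 2 days, with 4 of 9 tested genes higher and none lower (median of 0.59). At 6 months they summed to 3112 to 4037 TPM in large cells, against 9782 to 11298 TPM after 2 days, with 4 of 9 lower and none higher (median of -0.75). Of 11 macrophage markers 3 were higher and 6 lower at 20 months (median of -0.64), and 3 were higher and 3 lower at 6 months (median of -0.03). Neutrophil markers were lower in 3 of 4 tested genes at 20 months and 1 of 4 at 6 months. The part of these markers in the changes was not tested.

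Jdp2 had the largest rise of the 8 at both ages. In 20-month large cells it read 271, 330 and 272 TPM, against 59.7, 60.7 and 53.6 TPM after 2 days. In 6-month large cells it read 306, 142 and 256 TPM, against 33.2, 32.7 and 35.6 TPM after 2 days. No library of either large-cell group overlapped its 2-day group. The changes were 2.42 ± 0.18 at 20 months (adjusted p = 4.55e-10) and 3.07 ± 0.18 at 6 months (adjusted p = 6.52e-12), which are 5.36-fold and 8.40-fold. Prdm1, which encodes Blimp-1, read 19.7, 24.7 and 19.2 TPM in 20-month large cells, against 4.49, 4.25 and 3.08 TPM after 2 days. At 6 months it read 19.5, 2.97 and 9.20 TPM in large cells, against 2.56, 2.62 and 2.02 TPM after 2 days, so that replicate 2 of the large cells lay close to the 2-day level. Its changes were 2.23 ± 0.30 (adjusted p = 3.08e-06) at 20 months and 1.73 ± 0.30 (adjusted p = 7.79e-05) at 6 months.

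Nfatc1, the central RANKL-induced factor, read 71.1, 87.1 and 66.8 TPM in 20-month large cells, against 28.9, 29.7 and 21.4 TPM after 2 days. At 6 months it read 69.5, 21.7 and 54.5 TPM in large cells, against 18.8, 21.6 and 23.9 TPM after 2 days. In deposited TPM replicate 2 of the 6-month large cells fell inside the 2-day range, and after scaling between libraries the groups did not overlap at either age. The changes were 1.58 ± 0.20 at 20 months (adjusted p = 8.55e-07) and 1.37 ± 0.20 at 6 months (adjusted p = 6.75e-06). Spi1, the lineage factor, read 281, 327 and 293 TPM in 20-month large cells, against 168, 168 and 199 TPM after 2 days. In 6-month large cells it read 400, 168 and 324 TPM, against 105, 101 and 117 TPM after 2 days. It rose by 0.88 ± 0.16 at 20 months (adjusted p = 0.000153) and by 1.76 ± 0.16 at 6 months (adjusted p = 1.37e-08), with no overlap at either age.

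The 4 MiT genes did not move as one. Mitf rose at both ages, by 1.09 ± 0.16 at 20 months (adjusted p = 1.1e-05) and 1.81 ± 0.16 at 6 months (adjusted p = 8.5e-09). It read 19.0, 19.9 and 18.8 TPM in 20-month large cells, against 8.50, 9.92 and 9.13 TPM after 2 days. Tfe3, the partner that overlaps with Mitf in function, was not called at either age, at -0.15 ± 0.11 (adjusted p = 0.295) at 20 months and -0.05 ± 0.11 (adjusted p = 0.726) at 6 months. The 95% intervals of these changes ran from -0.38 to 0.07 and from -0.28 to 0.18. Tfe3 read 54.6, 54.9 and 59.5 TPM in 20-month large cells, against 66.5, 67.5 and 71.4 TPM after 2 days, so that every large-cell library lay below the 2-day ones. Tfeb was called higher at 6 months (1.35 ± 0.30, adjusted p = 0.000913) and not at 20 months (0.43 ± 0.30, adjusted p = 0.292). The 6-month value was 0.82 (adjusted p = 0.00757) without replicate 2 of the large cells, and its adjusted p was 0.105 when only those 2 groups entered the fit. Tfec was higher in 6-month large cells (0.75 ± 0.13, adjusted p = 5.56e-05), and its 20-month value was -0.31 ± 0.13 (adjusted p = 0.0653). The 6-month Tfec call was lost with TPM as deposited (0.39, adjusted p = 0.0777), with one variance per group (adjusted p = 0.0536) and with only the compared groups in the fit (adjusted p = 0.0534). At 20 months every large-cell Tfec library, at 15.8 to 18.6 TPM, lay below the 2-day ones, at 20.7 to 24.6 TPM. With only the 20-month groups in the fit Tfec was called lower (adjusted p = 0.03835) and Tfeb higher (adjusted p = 0.0389). The 20-month Tfeb ranges were apart after scaling but overlapped as deposited, at 8.02 to 10.3 TPM in large and 5.95 to 8.72 TPM in 2-day cells.

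**Figure D2:**
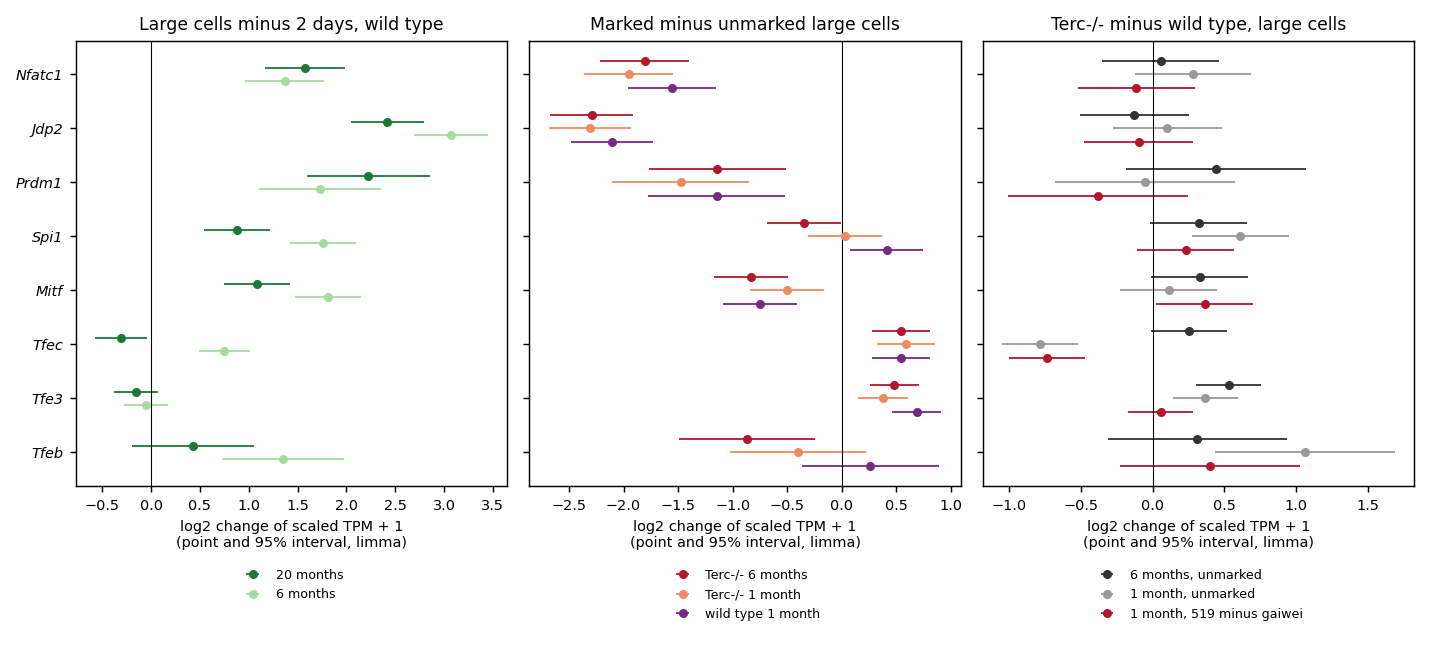
Log2 change of scaled TPM + 1 for the 8 genes, with points for the limma estimate and bars for its 95% interval, 3 libraries per group. The left panel sets wild-type large cells against 2-day cells, the middle one marked against unmarked large cells and the right one Terc-/- against wild-type large cells. Jdp2 has the largest rise in the left panel (2.42 and 3.07) and the largest fall in the middle one (-2.29, -2.31 and -2.11), and Tfec lies below zero in both 1-month comparisons of the right panel (-0.78 and -0.73).

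Whether the change over differentiation differed between 20 and 6 months was tested as a difference of the 2 changes. Of the 8 genes 3 were called, all with a lower value at 20 months, against 25.0% of all genes called in either direction and 12.6% called lower. Tfec differed by -1.06 ± 0.18 (adjusted p = 0.000171), Spi1 by -0.88 ± 0.23 (adjusted p = 0.00695) and Mitf by -0.72 ± 0.23 (adjusted p = 0.0248). Jdp2, at -0.65 ± 0.26, had an adjusted p of 0.068, and Nfatc1 (0.21 ± 0.28) and Prdm1 (0.50 ± 0.43) had adjusted p of 0.599 and 0.398. With TPM as deposited only Tfec kept its call, and Spi1 (-0.62, adjusted p = 0.107) and Mitf (-0.50, adjusted p = 0.292) lost theirs. Mitf also had adjusted p of 0.0911 with one variance per group and 0.0815 with only the groups compared. Without replicate 3 of the 20-month 2-day group its adjusted p was 0.0568, without replicate 2 of the 6-month 2-day group 0.0648 and without replicate 1 of the 6-month large-cell group 0.0538. Without replicate 2 of the 6-month large-cell group, the library that stood apart, Prdm1 differed by 0.052 and Nfatc1 by -0.074, and Jdp2 was called (-0.76, adjusted p = 0.0381). Tfeb was called without replicate 1 or 4 of that group (-1.18 and -1.21, adjusted p of 0.0343 and 0.0401). In the same test of the difference, stromal and osteoblast markers were higher in 6 and lower in none of 9 (median of 1.68), macrophage markers lower in 3 and higher in none of 11 (median of -0.67), and neutrophil markers lower in 2 of 4. Their part in the Tfec, Spi1 and Mitf differences was not tested.

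The 2-day libraries of the different ages already differed. In 20-month cells after 2 days 4 of the 8 genes were higher than in 6-month cells and none was lower, against 17.3% of all genes called in either direction and 8.54% called higher. Mitf read 8.50, 9.92 and 9.13 TPM at 20 months, against 4.54, 4.16 and 5.33 TPM at 6 months, a change of 0.80 ± 0.16 (adjusted p = 0.00149). Jdp2 was higher by 0.73 ± 0.18 (adjusted p = 0.00694) and Spi1 by 0.70 ± 0.16 (adjusted p = 0.00452). In each of these genes the lowest 20-month library lay above the highest 6-month one. Tfec read 20.7, 24.2 and 24.6 TPM at 20 months, against 12.6, 15.4 and 18.8 TPM at 6 months, and was higher by 0.52 ± 0.13 (adjusted p = 0.00598). Its adjusted p was 0.0589 without replicate 1 of the 6-month group. Nfatc1, at 0.27 ± 0.20, was not called (adjusted p = 0.409). Reported target genes of NFATc1, MITF and PU.1 were higher in 10 and lower in 1 of 17, with a median of 0.82 where the median of all genes was 0.01. Every osteoclast marker used here, Acp5 among them, is on this list of 17. Acp5 averaged 165 TPM at 20 months and 21.2 TPM at 6 months, a change of 2.87 ± 0.31 (adjusted p = 1.24e-06). Macrophage marker genes also summed to 2655 to 3044 TPM at 20 months and 2010 to 2179 TPM at 6 months, and stromal and osteoblast markers to 3190 to 4082 TPM at 20 months and 9782 to 11298 TPM at 6 months. The part of these markers in the result was not tested.

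The marked libraries were set against unmarked libraries of the same genotype and age. In 519-marked 6-month Terc-/- cells 7 of the 8 genes were called, 2 higher and 5 lower, against 28.2% of all genes called. In 519-marked 1-month Terc-/- cells 6 were called, 2 higher and 4 lower, against 33.6% of all genes. In gaiwei-marked 1-month wild-type cells 7 were called, 3 higher and 4 lower, against 46.5% of all genes. Jdp2, Nfatc1, Prdm1 and Mitf were lower in each of the 3 comparisons, which share no library, and their ranges did not overlap in any of them after scaling. Ranges were likewise apart for 49.7% of all genes in 6-month Terc-/-, 55.5% in 1-month Terc-/- and 51.7% in wild type. Mitochondrial transcripts took 3.20 to 4.51% of TPM in the marked libraries, against 5.01 to 9.42% in the unmarked libraries they were set against. Marked libraries listed 11270 to 11861 genes at 1 TPM or more, against 12105 to 12790 in those unmarked ones. The ranges of both measures were apart, and their part in the changes was not tested. Replicate 2 of the unmarked 6-month wild-type cells, a group on neither side of these comparisons, had 3.43% and 11938 genes.

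Jdp2 had the largest fall. It read 39.5, 35.8 and 35.1 TPM in 519-marked 6-month Terc-/- cells, against 290, 268 and 144 TPM in the unmarked ones. In the 1-month Terc-/- sets it read 30.3, 38.0 and 28.6 TPM in marked cells, against 211, 235 and 226 TPM in unmarked cells. In 1-month wild type it read 30.01, 32.0 and 37.4 TPM in marked cells, against 232, 185 and 226 TPM in unmarked cells. The highest marked library thus lay below the lowest unmarked one in every set. The changes were -2.29 ± 0.18 (adjusted p = 1.27e-09), -2.31 ± 0.18 (adjusted p = 7.56e-10) and -2.11 ± 0.18 (adjusted p = 1.7e-09), in the same order.

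Nfatc1 read 10.7, 11.01 and 11.3 TPM in marked 6-month Terc-/- cells, against 57.8, 62.4 and 33.6 TPM in unmarked ones. In 1-month Terc-/- it read 8.82, 7.25 and 7.29 TPM in marked cells, against 46.1, 37.9 and 51.1 TPM in unmarked ones. In 1-month wild type it read 7.44, 6.80 and 10.5 TPM in marked cells, against 31.3, 36.0 and 46.5 TPM in unmarked ones. Its changes were -1.81, -1.95 and -1.56, each ± 0.20, with adjusted p of 1.47e-07, 3.27e-08 and 5.75e-07. The marked libraries lay not only below the unmarked large cells but also below every 2-day library, of which the lowest read 18.8 TPM. The same held on the scaled log2 values, at 3.41 to 3.82 in marked and 4.0003 to 4.57 in 2-day libraries. For Jdp2 the order depended on the scale. Its marked range of 28.6 to 39.5 TPM as deposited took in the 6-month 2-day range of 32.7 to 35.6 TPM, but on the scaled log2 values every marked library, at 5.28 to 5.74, lay above the 6-month 2-day ones, at 4.75 to 4.87. The 20-month 2-day libraries lay above every marked one as deposited, at 53.6 to 60.7 TPM, and inside the marked range after scaling, at 5.45 to 5.57. Prdm1 overlapped on both scales, at 1.85 to 4.35 TPM in marked and 2.02 to 4.49 TPM in 2-day libraries, and at 1.83 to 2.61 and 1.38 to 2.17 on the scaled log2 values. Marked and 2-day groups differ in age or genotype as well, and no test was made between them.

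**Figure D3:**
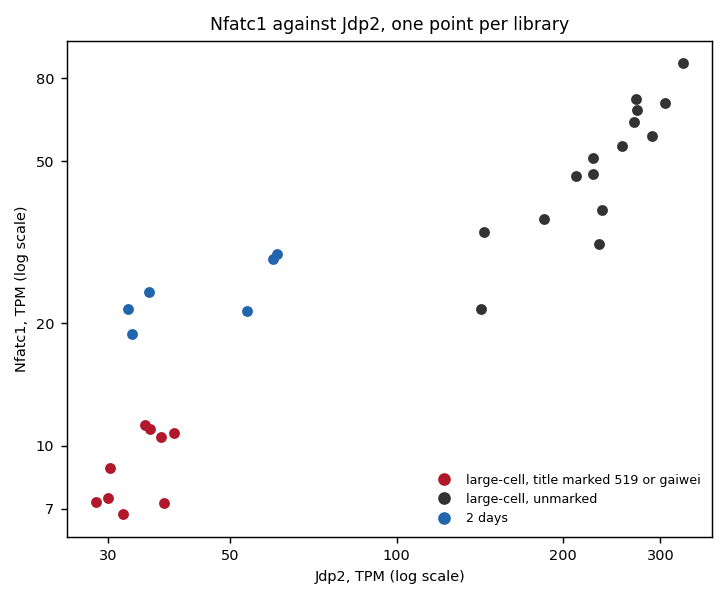
Nfatc1 against Jdp2 in deposited TPM (both axes on a log scale), one point per library. Red points are marked large-cell, grey points unmarked large-cell and blue points 2-day libraries. Jdp2 in marked libraries (28.6 to 39.5 TPM) overlaps the 6-month 2-day ones (32.7 to 35.6 TPM), and the 20-month 2-day ones lie above both (53.6 to 60.7 TPM). Nfatc1 is 6.80 to 11.3 TPM in the marked and 18.8 to 29.7 TPM in the 2-day libraries.

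Prdm1 read 4.05, 4.27 and 4.35 TPM in marked 6-month Terc-/- cells, against 18.4, 16.7 and 6.37 TPM in unmarked ones. Its changes were -1.14 ± 0.30 (adjusted p = 0.00585), -1.47 ± 0.30 in 1-month Terc-/- (adjusted p = 0.000496) and -1.14 ± 0.30 in wild type (adjusted p = 0.00335). Without replicate 1 of the unmarked group the 6-month value was -0.89 (adjusted p = 0.0511). Irf8 and Bcl6, genes that Blimp-1 is known to repress, were looked up beside it, and Bcl6 was chosen after its values had been seen. Irf8 was higher in marked cells by 0.52 ± 0.10 in 6-month Terc-/- (adjusted p = 0.000298), 1.25 ± 0.10 in 1-month Terc-/- (adjusted p = 9.84e-10) and 1.75 ± 0.10 in wild type (adjusted p = 2.58e-12). Bcl6 was called only in the wild-type comparison, at 0.56 ± 0.15 (adjusted p = 0.00305). As deposited, Bcl6 read 16.9, 15.1 and 18.9 TPM in gaiwei-marked cells, against 12.7, 18.0 and 20.1 TPM in unmarked wild-type cells, which overlap. Mitf fell by 0.83 ± 0.16 on the log2 scale in marked 6-month Terc-/- cells (adjusted p = 0.000365), by 0.50 ± 0.16 in 1-month Terc-/- (adjusted p = 0.0206) and by 0.75 ± 0.16 in wild type (adjusted p = 0.000566). With TPM as deposited the 1-month changes of Mitf were larger, at -0.94 and -1.26. In 1-month Terc-/- the Mitf call was lost without replicate 1 or 4 of the unmarked group (adjusted p of 0.0641 and 0.0573) or replicate 2 or 3 of the marked group (0.0854 and 0.0542).

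For the other genes the calls depended on the scaling. With TPM as deposited the median log2 change of all genes between marked and unmarked cells was -0.26, -0.39 and -0.49 in 6-month Terc-/-, 1-month Terc-/- and 1-month wild type. After scaling between libraries it was within 0.01 of zero in each. Tfec was called higher by 0.54, 0.59 and 0.54, each ± 0.13, but with TPM as deposited its changes were 0.27, 0.14 and -0.01, none of them called. Tfe3 was called higher by 0.48, 0.38 and 0.69, each ± 0.11, and with TPM as deposited its changes were 0.20, -0.09 and 0.13, again not called. Tfec in deposited TPM read 19.7, 14.5 and 15.98 in marked 1-month Terc-/- cells, against 15.6, 13.7 and 15.5 in unmarked ones, which overlap. Spi1 read 238, 247 and 254 TPM in marked 6-month Terc-/- cells, against 439, 410 and 309 TPM in unmarked ones (-0.34 ± 0.16, adjusted p = 0.125). In 1-month Terc-/- it read 315, 302 and 293 TPM in marked cells, against 422, 445 and 373 TPM in unmarked ones. In deposited TPM the marked libraries thus lay below the unmarked ones in both sets, while the scaled 1-month change was 0.03 ± 0.16 (adjusted p = 0.907). In 1-month wild type Spi1 was called higher at 0.41 ± 0.16 (adjusted p = 0.0423), but it was -0.15 with TPM as deposited, and the call was also lost without replicate 3 (0.25) or 4 (0.34) of the unmarked group or without any one replicate of the marked group (0.37 to 0.44). It was 0.64 without replicate 1 of the unmarked group. Tfeb was lower in marked 6-month Terc-/- cells (-0.87 ± 0.30, adjusted p = 0.0341), a call that was lost without replicate 1 or 2 of either group (adjusted p of 0.0932 to 0.127) and with no filter on low values (adjusted p = 0.0659).

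Of 17 reported targets of NFATc1, MITF and PU.1, 14 were lower in marked 6-month Terc-/- cells, 15 in 1-month Terc-/- and 12 in 1-month wild type. In each 1-month comparison 1 target was higher. Of all 12614 genes 1743, 1907 and 2820 were called lower, in the same order. Every osteoclast marker used here is on this list of targets, so its fall and the low Acp5 of the marked libraries are not separate results. The medians of the 17 targets were -1.83, -2.59 and -1.73, where those of all genes lay within 0.01 of zero. All 17 were also higher in large than in 2-day cells at both ages (medians of 2.59 at 20 months and 2.88 at 6 months). Ctsk, the collagen-degrading protease of osteoclasts, averaged 27.0 TPM in marked and 2686 TPM in unmarked 1-month Terc-/- cells (-6.13 ± 0.27, adjusted p = 1.21e-13). Of 27 tested lysosome and autophagy targets of TFEB and TFE3, 1 was higher and 10 lower in marked 6-month Terc-/- cells, 6 and 4 in 1-month Terc-/-, and 13 and 6 in wild type. Gpnmb, a lysosomal membrane glycoprotein, fell in all 3 (-1.63, -1.57 and -1.23, each ± 0.20), as did Rragd, a Rag GTPase of the lysosome surface (-1.65, -1.37 and -1.60, each ± 0.16), while Neu1, a lysosomal sialidase, was called higher in 1-month Terc-/- and wild type (0.76 and 1.12, each ± 0.12). Macrophage markers summed to 6758 to 7694 TPM in marked and 4079 to 4604 TPM in unmarked 6-month Terc-/- cells, 8004 to 9105 against 3899 to 4339 TPM in 1-month Terc-/-, and 5850 to 7357 against 2720 to 3002 TPM in 1-month wild type. Of these 11 markers 6 were higher and 2 lower in 6-month Terc-/-. In each 1-month comparison 8 were higher and none lower (medians of 1.23, 1.56 and 1.72, in the same order). Neutrophil markers also summed higher in marked cells (1437 to 3832 TPM, against 47.1 to 311 TPM in unmarked ones of the same conditions). Of the 10 genes on that list 4 passed the filter, and 3 of these were higher in each comparison (medians of 2.63, 2.62 and 3.37). Elane was at 0 in all of these libraries, and it was the only gene of the list at 0 in all 3 gaiwei libraries. Mpo and S100a9 were also at 0 in all 3 519-marked 1-month libraries, as were Mpo and Cxcr2 in the 519-marked 6-month ones. In each marked group 3 of the 10 genes reached 1 TPM in all 3 libraries, against 2 in each unmarked group. Stromal and osteoblast markers summed to 981 to 1145 TPM in marked and 581 to 2743 TPM in unmarked 6-month Terc-/- cells, 364 to 418 against 428 to 901 TPM in 1-month Terc-/-, and 633 to 792 against 2386 to 5040 TPM in 1-month wild type. Of their 9 tested genes 2, 3 and 8 were lower in the same order, and 1 was higher, in wild type (medians of -0.27, -0.45 and -2.03). The part of these markers in the changes was not tested.

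Terc-/- and wild-type large cells were compared to ask whether loss of Terc changed these genes. Nfatc1, Jdp2, Prdm1 and Mitf were called at neither age. At 6 months their changes were 0.06 ± 0.20, -0.13 ± 0.18, 0.44 ± 0.30 and 0.33 ± 0.16, with 95% intervals from -0.35 to 0.46, -0.51 to 0.25, -0.19 to 1.07 and -0.01 to 0.67. At 1 month they were 0.28, 0.10, -0.05 and 0.11, with 95% intervals from -0.12 to 0.69, -0.28 to 0.48, -0.68 to 0.58 and -0.23 to 0.45. At 6 months, Mitf and Prdm1 were called higher without replicate 1 of the wild-type group (0.52 and 0.86) or without replicate 4 of the Terc-/- group (0.57 and 0.85). Without replicate 2 of the wild-type group, the library that stood apart, they were 0.12 and -0.0061 and not called (adjusted p of 0.58 and 0.993), and Tfeb was called higher (0.85, adjusted p = 0.00871).

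Of the 8 genes, 4 were called between 1-month Terc-/- and wild-type cells, against 30.9% of all genes. Tfeb read 22.1, 26.9 and 19.5 TPM in Terc-/- cells, against 13.4, 9.27 and 9.30 TPM in wild-type cells, and was 2.09-fold higher (1.06 ± 0.30, adjusted p = 0.00988). Spi1 read 422, 445 and 373 TPM in Terc-/- cells, against 320, 237 and 278 TPM in wild-type cells, a change of 0.61 ± 0.16 (adjusted p = 0.00633). Tfe3, which lies on the X chromosome, read 68.7, 68.7 and 70.5 TPM in Terc-/- cells, against 46.0, 58.5 and 60.8 TPM in wild-type cells (0.37 ± 0.11, adjusted p = 0.0131). The Tfeb and Tfe3 groups did not overlap, while the scaled Spi1 ranges did. The wild-type libraries of this comparison are those with Xist. The Tfeb call was lost without replicate 3 of the Terc-/- group (adjusted p = 0.0566) or replicate 3 or 4 of the wild-type group (0.0513 and 0.0537), and the Spi1 call without replicate 3 of the wild-type group (0.45, adjusted p = 0.0606) or with only the compared groups in the fit (adjusted p = 0.106). The Tfe3 call was lost without replicate 3 of the Terc-/- group (adjusted p = 0.0546) and with TPM as deposited (adjusted p = 0.203).

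At 6 months only Tfe3 was called, against 28.8% of all genes, at 70.3, 72.0 and 72.0 TPM in Terc-/- cells and 64.8, 26.9 and 51.7 TPM in wild-type cells (0.53 ± 0.11, adjusted p = 0.000841). Neither of these groups holds Xist above 0.254 TPM. The call was lost with one variance per group (adjusted p = 0.202) and with only the 2 groups in the fit (adjusted p = 0.244). Of the 27 tested TFEB and TFE3 targets, 13 were higher and none lower in Terc-/- cells at 6 months, and 14 were higher and 1 lower at 1 month, with medians of 0.42 and 0.37, where those of all genes were 0.02 and 0.00. Ctsb, a lysosomal cysteine protease, averaged 2108 TPM in Terc-/- and 1216 TPM in wild-type cells at 6 months (0.69 ± 0.11, adjusted p = 7.3e-05), and 2806 TPM in Terc-/- and 1441 TPM in wild-type cells at 1 month (0.99 ± 0.11, adjusted p = 9.02e-07). Gaa, the acid glucosidase of lysosomes, was higher by 0.79 and 0.59, each ± 0.07. Of 30 other osteoclast transcription regulators, 15 were higher and none lower at 6 months, and 13 were higher and 2 lower at 1 month. Among them Junb, an AP-1 subunit, rose by 1.11 and 0.83, each ± 0.15. Macrophage markers summed to 4079 to 4604 TPM in Terc-/- and 1491 to 3313 TPM in wild-type cells at 6 months, and to 3899 to 4339 TPM in Terc-/- and 2720 to 3002 TPM in wild-type cells at 1 month. Of 11 macrophage markers 6 were called higher and none lower at 6 months, and 3 higher and 1 lower at 1 month. Stromal and osteoblast markers summed lower, at 581 to 2743 TPM in Terc-/- and 3112 to 4037 TPM in wild-type cells at 6 months, and at 428 to 901 TPM in Terc-/- and 2386 to 5040 TPM in wild-type cells at 1 month. Of their 9 tested genes 6 were lower and 1 higher at 6 months, and 7 lower and 1 higher at 1 month. Of 4 tested neutrophil markers 3 were higher and none lower at 6 months (median of 1.35), and 1 was lower and none higher at 1 month. The part of these markers in the changes with genotype was not tested.

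Tfec, the macrophage member of the MiT family, was the only one of the 8 that was called lower with loss of Terc. At 1 month it read 15.6, 13.7 and 15.5 TPM in unmarked Terc-/- cells, against 26.5, 28.0 and 26.7 TPM in wild-type cells, so the groups were far apart. The change was -0.78 ± 0.13 (0.58-fold, adjusted p = 6.34e-05). In the marked libraries of the same age Tfec read 19.7, 14.5 and 15.98 TPM in 519-marked Terc-/- cells, against 26.3, 25.6 and 29.1 TPM in gaiwei-marked wild-type cells. This second comparison shares no library with the first, both of its groups had Xist at 0.254 TPM or less, and its change was -0.73 ± 0.13 (adjusted p = 0.00102). Tfec was the only one of the 8 called there, against 3.45% of all genes, although genotype and title word cannot be told apart in it, and with TPM as deposited the value was -0.67 (adjusted p = 0.0561). At 6 months Tfec read 26.1, 29.4 and 25.0 TPM in unmarked Terc-/- cells, against 28.9, 13.0 and 22.6 TPM in wild-type cells, a change of 0.25 ± 0.13 (adjusted p = 0.143). The change with genotype differed between 6 months and 1 month by 1.03 ± 0.18 (adjusted p = 0.00112), and Tfec was the only one of the 8 so called, against 3.58% of all genes. The adjusted p was 0.326 with one variance per group and 0.0638 with only the 4 groups in the fit.

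Tfec also changed with age within Terc-/- cells. It read 26.1, 29.4 and 25.0 TPM in unmarked 6-month cells, against 15.6, 13.7 and 15.5 TPM in unmarked 1-month cells (0.80 ± 0.13, adjusted p = 0.000324). In 519-marked cells it read 35.7, 31.4 and 30.5 TPM at 6 months, against 19.7, 14.5 and 15.98 TPM at 1 month (0.76 ± 0.13, adjusted p = 0.000165). The ages did not overlap in either set, and the sets share no library. In the unmarked set Tfec was the only one of the 8 called, against 3.98% of all genes. In the marked set 3 were called, against 23.9% of all genes, but Spi1 (-0.49 ± 0.16, adjusted p = 0.0335) and Tfeb (-0.87 ± 0.30, adjusted p = 0.0392) lost their calls when any one library of the set was left out (adjusted p of 0.0611 to 0.107 for Spi1 and 0.0535 to 0.112 for Tfeb), with no filter on low values (0.0589 and 0.0762) and with TPM as deposited (0.291 and 0.0538). With only the 2 marked groups in the fit, 6 of the 8 were called, where 2698 of all 12614 genes were called higher and 3015 lower. Spi1, Tfeb and Mitf were lower at 6 months (adjusted p of 0.00114, 0.00106 and 0.0286). Tfec, Prdm1 and Nfatc1 were higher (adjusted p of 0.001003, 0.00804 and 0.0396). The Spi1 and Tfeb ranges of the 2 ages did not overlap. The TFEB and TFE3 targets were lower in 15 and higher in none of 27 in the marked set, with a median of -0.32, led by Ctsb (-0.94 ± 0.11, adjusted p = 2.68e-06). In the unmarked set 2 were lower and none higher. Stromal and osteoblast markers were higher at 6 months in 5 of 9 tested genes in the unmarked set (median of 1.09) and in 6 of 9 in the marked set (median of 1.43), with none lower. Of 11 macrophage markers 1 was higher and 1 lower in the unmarked set, and 1 was higher and 4 lower in the marked set. Neutrophil markers were higher in 1 of 4 in each set. The part of these markers in the Tfec changes was not tested.

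**Figure D4:**
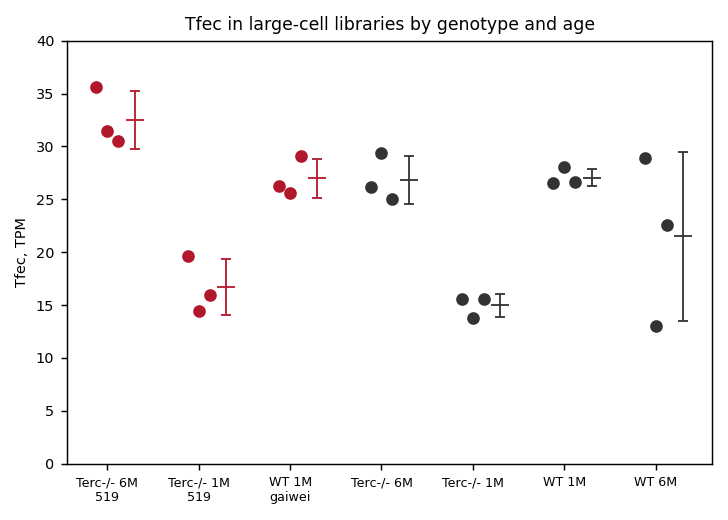
Tfec in deposited TPM in the 1-month and 6-month large-cell groups, one point per library with the group mean and SD beside the points (n = 3 per group). Red marks 519 or gaiwei groups and grey unmarked groups. Both 1-month Terc-/- groups lie at 13.7 to 19.7 TPM, below the 1-month wild-type groups at 25.6 to 29.1 TPM and the 6-month Terc-/- groups at 25.0 to 35.7 TPM.

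In wild-type large cells without a mark, ageing was followed over 1, 6 and 20 months. Nfatc1 read 31.3, 36.0 and 46.5 TPM at 1 month, 69.5, 21.7 and 54.5 TPM at 6 months and 71.1, 87.1 and 66.8 TPM at 20 months. All 20-month libraries lay above all 1-month libraries, and the change between 20 months and 1 month was 0.85 ± 0.20 (adjusted p = 0.00283). Tfec was lower with age, at 26.5, 28.0 and 26.7 TPM at 1 month, 28.9, 13.0 and 22.6 TPM at 6 months and 16.4, 18.6 and 15.8 TPM at 20 months (-0.77 ± 0.13 between 20 months and 1 month, adjusted p = 0.000111). These 2 genes were called in that comparison, against 22.2% of all genes, and its 1-month libraries are those with Xist. Prdm1 was not called there, at 0.76 ± 0.30 (adjusted p = 0.0765). Its ranges were apart, at 19.2 to 24.7 TPM at 20 months and 8.09 to 14.7 TPM at 1 month. With only the 2 groups in the fit its adjusted p was 0.0276. Between 20 and 6 months 2 genes were called, against 27.6% of all genes. Prdm1 was higher at 20 months by 0.98 ± 0.30 (adjusted p = 0.0206), but by 0.53 (adjusted p = 0.196) without replicate 2 of the 6-month group and with an adjusted p of 0.0819 without replicate 3 of the 20-month group. Tfec was lower by 0.53 ± 0.13 on the log2 scale (adjusted p = 0.00437). Both calls were lost with one variance per group (adjusted p of 0.239 and 0.287) and with only the 2 groups in the fit (0.316 and 0.224), and the Tfec call with TPM as deposited (-0.26, adjusted p = 0.259). Nfatc1 had 0.48 ± 0.20 (adjusted p = 0.0702) and was called without replicate 1 or 4 of the 6-month group (0.65 and 0.59), as was Tfeb (-0.92 and -0.95), and Nfatc1 also with TPM as deposited (0.76, adjusted p = 0.0478).

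Between 6 months and 1 month limma called none of the 8 genes, and none had an unadjusted p under 0.05, against 9.58% of all genes called. Without replicate 2 of the 6-month group Nfatc1 was called, at 0.65 (adjusted p = 0.0285). Targets of NFATc1, MITF and PU.1 were higher in 6 and lower in none of 17 between 20 months and 1 month, and higher in 4 and lower in none between 20 and 6 months. Oscar, a costimulatory receptor of osteoclasts, averaged 33.1 TPM at 1 month, 44.0 TPM at 6 months and 136 TPM at 20 months, a change of 1.86 ± 0.28 between 20 months and 1 month (adjusted p = 3.8e-05). Osteoclast markers, all of them on the list of targets, summed to 10504 to 12903 TPM at 1 month, 9426 to 14644 TPM at 6 months and 18068 to 28080 TPM at 20 months. Their part in the Nfatc1 and Prdm1 values was not tested. Stromal and osteoblast markers summed to 2386 to 5040 TPM at 1 month, 3112 to 4037 TPM at 6 months and 6062 to 7615 TPM at 20 months. Of their 9 tested genes 3 were higher and 1 lower between 20 months and 1 month (median of 1.02), and 4 were higher and none lower between 20 and 6 months (median of 0.36). Neutrophil markers were lower in 2 of 4 tested genes between 20 months and 1 month, and in 1 of 4 between 20 and 6 months. Plasma cells also use Prdm1. The B cell and plasma cell list summed to 203 to 264 TPM at 20 months and 90.7 to 173 TPM at 6 months, and of its 3 tested genes 2 were higher and 1 lower at 20 months (median of 0.69). Of its 11 listed genes, Mzb1 was at 0 in all 3 libraries at 20 months, and Mzb1, Ms4a1 and Tnfrsf17 at 6 months. The part of these markers in the results with age was not tested.

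The genes whose levels followed each factor most closely were found by Spearman correlation of scaled log2 TPM over the 30 libraries, over 9285 genes that averaged 5 TPM or more. These values describe the libraries, which share large differences between groups, and carry no test. Nfatc1 was followed most closely by Firre (0.97), Myo1d (0.97) and Msi2 (0.97), and Jdp2 by Fam102a (0.90), Rufy4 (0.90) and Acp5 (0.90). Mitf was followed by Sema4d (0.98) and Gpr137b (0.97), and Prdm1 by Gnptab (0.95) and Sft2d2 (0.95). For Spi1 the closest were Mfsd11 (0.94), Cd82 (0.93) and Pnpla2 (0.92), and for Tfeb they were Kcnn4 (0.94), Ndufs7 (0.94) and Uqcr11 (0.94). Tfe3 was nearest to Rab11fip1 (0.96), Diaph1 (0.96) and Sh3bp5 (0.95). The closest genes to Tfec, namely Il21r (0.86), Cd86 (0.84) and Bcl2a1d (0.84), were less close than those of the other 7 factors. Acp5 and Gpr137b, which encodes a lysosomal membrane protein, are also on the list of reported targets.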

How the data were processed

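The authors deposited RNA-seq values in 5 tables. Their unit was read from the values as TPM, since each column has the same total. HTSeq and the mm10 genome are named without versions or roles, per the submitters' processing notes, and no aligner is named in the sources used here. Of 45706 gene identifiers 45143 matched GENCODE M21. Columns were matched to samples by title.

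TPM were scaled between libraries by a trimmed mean of log ratios that left out 30% of the ratios and 5% of the levels at either end, then log2-transformed after adding 1. The 12614 genes averaging 1 TPM or more were tested. R 4.3.3 with limma 3.58.1 fitted 10 group means with a trend and robust empirical Bayes moderation, with Benjamini-Hochberg adjustment inside each of 16 contrasts and a threshold of 0.05. A fold change on this scale understates the change of low genes. Descriptions used Python 3.11.15, pandas 2.3.3, numpy 2.4.6 and matplotlib 3.10.9. The fit was also run on simulated data with known fold changes, an outcome that is not reported here.

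The 8 genes and the other lists were chosen with earlier results of these data known. Beside the 8 genes, the text names up to 4 genes of a list with the smallest p among those with a mean of at least 5 TPM, the 3 genes most like each factor, and checks of labels. Some genes picked this way are named nowhere in the text, as they are not reported here. Alternatives were TPM as deposited, median-ratio scaling, 0.1 as pseudocount, all 25466 genes above 0, a replicate block, only the groups compared, one variance per group and leaving out each library. Leaving 6-month wild-type replicate 2 out of the shared spread of other comparisons was chosen after seeing the data. Replicate numbers were not taken to pair libraries.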

Additional observations from a re-analysis of the deposited data

Results flagged for a closer look

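Effects under one contrast that differed between ages by a test of the difference itself (limma, Benjamini-Hochberg) were Tfec, Spi1 and Mitf over differentiation and Tfec with genotype. The change between large and 2-day wild-type cells at 20 months minus that at 6 months was -1.06 ± 0.18 for Tfec (adjusted p = 0.000171), -0.88 ± 0.23 for Spi1 (adjusted p = 0.00695) and -0.72 ± 0.23 for Mitf (adjusted p = 0.0248). With loss of Terc in unmarked large cells Tfec changed by -0.78 ± 0.13 at 1 month and by 0.25 ± 0.13, not called, at 6 months. The 6-month change minus the 1-month change was 1.03 ± 0.18 (adjusted p = 0.00112). The call was lost with one variance per group and with only the compared groups in the fit (adjusted p = 0.0638). The 1-month wild-type libraries are those with Xist. Groups of 3 libraries were too small to test whether 1 library lay outside its group.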

How the results depend on the processing

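Of 418 values of called genes under alternatives other than leaving out a library, 381 kept direction and call, 34 lost the call and 3 reversed. Reversed with TPM as deposited were Tfe3 in marked 1-month Terc-/- cells (-0.0904) and Tfec (-0.0057) and Spi1 (-0.15) in marked wild-type cells; their adjusted p were 0.709, 0.981 and 0.509. The cause was not tested. Beside the marked comparisons, the median log2 change of all genes with TPM as deposited was -0.11 for differentiation at 20 months, -0.36 at 6 months and 0.24 for their difference. It was 0.13 for genotype at 6 months, 0.17 for the genotype difference between ages, 0.27 and -0.16 for wild type at 20 against 6 months and at 6 months against 1 month, and 0.14 for 519-marked 6 against 1 month. After scaling it was within 0.03 of zero in each.

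The number of the 8 genes called changed by over 1.5 times as follows. With TPM as deposited it was 4 and not 7 for marked against unmarked wild type, 1 and not 3 for the age difference in differentiation and for 519-marked 6 against 1 month, and 0 and not 1 for marked Terc-/- against marked wild type. With no filter it was 1 and not 3 for 519-marked 6 against 1 month. With one variance per group it was 0 and not 1 for 6-month genotype and for the genotype difference between ages, 0 and not 2 for wild type at 20 against 6 months, and 5 and not 3 for 519-marked 6 against 1 month. With only the groups compared, these 4 counts were 0, 0, 0 and 6.

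Leaving out each library gave 311 of 348 values with the same call. The counts ranged from 5 to 7 for marked 6-month Terc-/- cells, 5 to 6 for marked 1-month Terc-/- cells and 6 to 7 for marked wild-type cells. Differentiation gave 5 to 6 at 20 months, 7 to 7 at 6 months and 2 to 4 for their difference, and 2-day age 3 to 4. Genotype gave 1 to 3 at 6 months, 2 to 4 at 1 month, 1 to 1 for their difference and 1 to 1 between marked sets. Wild-type age gave 1 to 4 at 20 against 6 months, 2 to 2 at 20 months against 1 month and 0 to 1 at 6 months against 1 month, and Terc-/- age 1 to 1 in both sets.

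Same-numbered libraries correlated at -0.596 to 0.33, and in no comparison with 3 shared numbers were all 3 pairs above 0.1, so the numbers were not taken as a pairing. Where fewer numbers were shared, both pairs were above 0.1 in marked against unmarked wild type (0.246 and 0.229) and in unmarked Terc-/- cells at 6 months against 1 month (0.33 and 0.169). With the replicate block the count was 6 for marked against unmarked wild type, where Spi1 had an adjusted p of 0.0643, and every other count was as without it. Leaving the library that stands apart out of the shared spread, chosen after seeing the data, gave 6 and not 5 for differentiation at 20 months and 3 and not 2 for wild type at 20 months against 1 month. Read depth was unknown, and 3 libraries a group limit the precision.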
